A study of Mus musculus with 20 samples.

Results

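The cytotoxic granule and effector genes described here are the granzyme genes *Gzma*, *Gzmb*, *Gzmc*, *Gzmk* and *Gzmm*, the pore gene *Prf1*, the granule genes *Srgn* and *Nkg7*, the death ligand gene *Fasl* and the cytokine gene *Ifng*. They were chosen by gene name, and all 10 were found among the 53380 genes of the table. RNA-seq of sorted mouse epidermal cells had been done on 5 populations in 20 libraries: 5 of dendritic epidermal T cells (DETCs), sorted as α6- Sca1 low Thy1+ cells, 4 each of the α6+ Sca1+ keratinocytes with high Thy1 (Thy1hi) and without it (Thy1-), 4 of CD34+ Sca1- hair follicle stem cells (HFSCs) and 3 of Thy1hi YFP+ keratinocytes. The question was which of these genes were transcribed in the epidermal T cells, at what level, and how far the keratinocyte populations shared them.

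By the study's methods the first 4 populations came from dorsal skin of wild-type C57BL/6J mice aged 8 weeks. The YFP+ cells came from mice in which Thy1 promoter sequence drives an inducible Cre recombinase and EYFP, with a Rosa26 EYFP reporter, so that YFP marks cells in which that transgene was active and not Thy1 protein itself. The sample labels differ from this: they give the genotype Thy1.2CreERT2-Rosa26-EYFP and no treatment for every sample of all 5 populations, ages that step by a week from 8 to 27 weeks from sample to sample, and, for the YFP+ cells, a cell type without Sca1 where the titles have it. How many mice entered a library is unclear, so the spread between libraries may be technical. The labels mention preparation in 2 batches and more than 1 library kit without saying which sample had which, so batch and population cannot be told apart. DETC libraries are named 1, 2, 3, a and b, because the numbers of the last 2 columns match no sample title.

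DETCs are γδ T cells that settle in the mouse epidermis before birth and carry an almost invariant receptor. Killer lymphocytes store perforin and granzymes in secretory granules, packed on the proteoglycan serglycin (*Srgn*). On release perforin opens the membrane of the target cell, granzymes enter and cleave proteins inside it, and Fas ligand acts at the surface through the death receptor Fas, while interferon gamma is secreted and acts on the tissue around.

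The 250 bases before the start site are shown for *Gzmb*, *Gzmc* and *Prf1*, members at high level in DETCs with the same short RUNX motif before the start, and for *Gzma*, which holds the motif too but had hardly a read. RUNX factors are known regulators of cytotoxic genes, and *Runx3* and *Runx1* are taken up below. The sequences are from RefSeq on GRCm38.p6, the assembly that mm10 names, and run 5′ to 3′ on the strand of the gene. They lie at chr14:56262335-56262584 (minus strand) for *Gzmb*, chr14:56234658-56234907 (minus strand) for *Gzmc*, chr10:61297586-61297835 (plus strand) for *Prf1* and chr13:113100982-113101231 (minus strand) for *Gzma*. Capitals mark matches to 5 motifs searched on both strands: RUNX (TGTGGT), T-box (GGTGTGA), AP-1 (TGANTCA), CRE (TGACGTCA) and ETS (CCGGAAG).
Gzmb: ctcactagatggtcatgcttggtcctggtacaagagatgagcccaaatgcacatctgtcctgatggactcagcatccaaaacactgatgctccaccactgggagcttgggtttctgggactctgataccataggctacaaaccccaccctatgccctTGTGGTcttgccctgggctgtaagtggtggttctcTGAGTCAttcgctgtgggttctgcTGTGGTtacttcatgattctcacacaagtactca
Gzmc: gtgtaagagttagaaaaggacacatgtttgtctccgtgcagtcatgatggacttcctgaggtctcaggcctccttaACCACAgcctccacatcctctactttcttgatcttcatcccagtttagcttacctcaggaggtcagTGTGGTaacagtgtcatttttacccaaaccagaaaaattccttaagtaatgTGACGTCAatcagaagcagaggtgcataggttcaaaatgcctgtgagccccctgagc
Prf1: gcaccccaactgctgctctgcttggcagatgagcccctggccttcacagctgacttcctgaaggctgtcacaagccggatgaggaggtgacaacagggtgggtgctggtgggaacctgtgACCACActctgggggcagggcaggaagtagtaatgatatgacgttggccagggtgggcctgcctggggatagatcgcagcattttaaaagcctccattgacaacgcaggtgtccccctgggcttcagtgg
Gzma: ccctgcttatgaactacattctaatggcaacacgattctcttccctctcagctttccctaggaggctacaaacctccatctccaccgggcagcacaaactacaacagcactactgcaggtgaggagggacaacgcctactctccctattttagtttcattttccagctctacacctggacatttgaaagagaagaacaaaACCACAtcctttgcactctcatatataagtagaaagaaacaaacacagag
A RUNX match lay in this window in 6 of the 10 members, which were *Gzma*, *Gzmb*, *Gzmc*, *Gzmm*, *Prf1* and *Nkg7*, and in 14.0% of 32851 mouse promoters of the same length. *Gzmb* had 2 RUNX matches, at bases -93 to -88 and -34 to -29 from the start, with an AP-1 match between them at -58 to -52. *Gzmc* had RUNX matches at -174 to -169 and -108 to -103 and a CRE match, the sequence bound by cyclic AMP responsive factors, at -57 to -50. *Prf1* had 1 RUNX match at -130 to -125, and *Gzma* 1 at -50 to -45. These counts take the first start site of each gene, and *Gzmm* and *Srgn* have another, with a T-box match in *Gzmm* (-189 to -183) and a RUNX match in *Srgn* (-202 to -197). T-box matches at the first start site were found in *Gzmk* and *Nkg7* (3.33% of all promoters), AP-1 only in *Gzmb* (6.75%), CRE only in *Gzmc* (1.55%) and ETS only in *Srgn* (6.91%), while the windows of *Fasl* and *Ifng* held no match. A match describes the letters of a window, and 2 of the 6 members with a RUNX match, *Gzma* and *Gzmm*, were at the low end of the levels below.

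Values are normalized counts, that is reads on a gene divided by 1 size factor per library (0.729 to 1.43), and libraries held 7781256 to 12982393 reads on genes. The column of Thy1- replicate 4 held 3212 genes in the wrong row, and these were put back, which moved 1 member, *Nkg7*, from 0 to 2.46 in that library. The 10 T cell markers (*Cd3e*, *Trdc* and others) summed to 22987 to 47006 in DETC libraries and to 148 to 497 in the 15 epithelial libraries, and all 10 had reads in each population. DETC libraries also held RNA of other cells, with 10407 to 47870 over 6 basal keratinocyte markers, against 53789 to 262078 in the epithelial libraries, and 1126 to 3315 over 6 Langerhans cell markers, against 75.7 to 5191. Of the markers of other cells that carry granzymes, the mast cell genes *Cma1*, *Mcpt4*, *Cpa3* and *Tpsb2* had no read in any DETC library and *Tpsab1* at most 2, while *Kit*, which other cells express too, had 115 ± 50.3 and made up nearly all of the mast cell list's sum of 66.4 to 192, against 2.97 to 40.6 in the epithelial libraries. The 5 NK cell markers summed to 16.8 to 41.1 in DETC libraries and 3.28 to 45.1 in the others, but they did not go the same way. *Klrb1c* had 12.4 ± 6.52 in DETCs and means of 0 to 1.29 in the other populations. *Eomes* had 10.3 ± 4.35 in DETCs and means of 5.96 to 22.8 in the others. *Klra4* had 1.53 ± 1.66 in DETCs, and a DETC library had at most 2 reads of *Ncr1* and none of *Klra8*. Markers of αβ T cells were present, and their 6 genes summed to 395 to 932 in DETC libraries and 19.4 to 71.8 in the others. In such bulk samples, fewer cells of a type and less RNA per cell cannot be told apart.

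**Figure D1:**
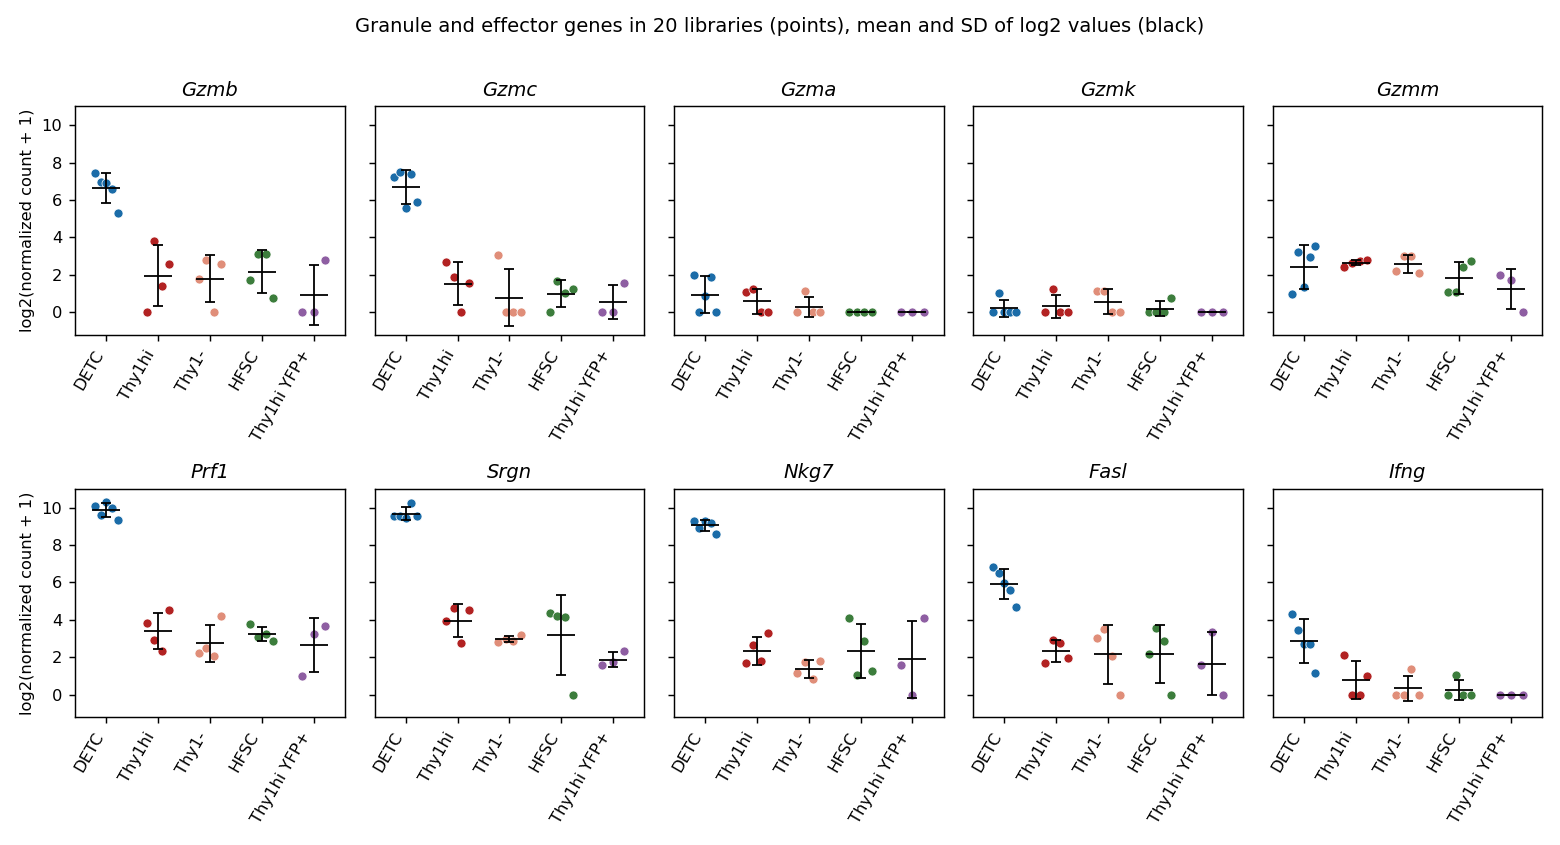
Each panel plots 1 gene, with log2(normalized count + 1) on the vertical axis, 1 point per library in the 5 populations, and the mean and SD of the log2 values in black. In *Prf1*, *Srgn*, *Nkg7*, *Gzmb*, *Gzmc* and *Fasl* all 5 DETC libraries lie above every epithelial library, whereas *Gzmm* is at a like level in DETC, Thy1hi and Thy1- libraries and *Gzma* and *Gzmk* stay near 0.

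Of the 10 genes, 6 (*Prf1*, *Srgn*, *Nkg7*, *Gzmb*, *Gzmc* and *Fasl*) had enough reads to be tested (3 or more libraries at 10 or above), and each of these 6 was higher in DETCs than in each of the 4 epithelial populations. Genes were called with limma at an adjusted p under 0.05 over 17204 genes. Relative to Thy1hi cells 19.9% of all genes tested were called higher in DETCs and 16.6% lower. Relative to Thy1- cells these shares were 18.9% and 15.2%, relative to HFSCs 21.2% and 18.5%, and relative to Thy1hi YFP+ cells 20.5% and 17.6%. The 4 comparisons share the 5 DETC libraries and are not independent. *Gzmb*, *Gzmc*, *Fasl* and *Nkg7* passed the filter only through their DETC libraries and so had to differ, whereas *Prf1* and *Srgn* reached the minimum in 5 and 6 epithelial libraries as well. *Gzma*, *Gzmk*, *Gzmm* and *Ifng* were not in the fit, and exact permutation tests of single genes are given for them.

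*Prf1* (ENSMUSG00000037202, mm10 chromosome 10 from 61297833 to 61304680) encodes perforin, the pore-forming protein of the granule. Its normalized count was 1077, 790.2, 1255, 1018 and 649 in DETC libraries 1, 2, 3, a and b (958 ± 240, SD, n = 5). It was 13.2, 6.59, 4.06 and 22.3 in the Thy1hi libraries, 3.65, 4.63, 3.16 and 17.2 in the Thy1- libraries, 12.7, 7.60, 8.55 and 6.31 in the HFSC libraries and 1.0, 8.51 and 11.9 in the YFP+ libraries. The lowest DETC library was thus far above the highest epithelial one, Thy1hi replicate 4, and the DETC libraries differed among themselves by a factor of 1.94. On the log2(value + 1) scale DETCs exceeded Thy1hi cells by 6.46 (SE 0.53, limma adjusted p 8.27e-09), Thy1- cells by 7.13, HFSCs by 6.62 and YFP+ cells by 7.22 (limma adjusted p at most 8.27e-09 in all 4). Pooled over libraries, DETCs had 85.7 times the *Prf1* reads of Thy1hi cells at equal size factor (95% counting interval 64.0 to 118), where such intervals cover counting error only.

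*Srgn* (ENSMUSG00000020077, chromosome 10 from 62493833 to 62527451), the granule proteoglycan that is also made by mast cells and other blood cells, was about as high. DETC libraries had 758, 755, 693, 1232 and 737 normalized counts (835 ± 224, n = 5), so that library a stood above the other 4, which lay close together. Thy1hi libraries had 14.3, 23.7, 5.69 and 22.3, Thy1- libraries 6.08, 6.94, 6.31 and 8.2, HFSC libraries 19.6, 17.4, 17.1 and 0, and YFP+ libraries 1.99, 2.32 and 3.96. All epithelial libraries were far below the DETC libraries, and HFSC replicate 4 stood apart from its group without a read. The log2 difference was 5.71 from Thy1hi cells (SE 0.64, limma adjusted p 5.53e-07), 6.70 from Thy1- cells, 6.49 from HFSCs and 7.80 from YFP+ cells (adjusted p 2.69e-08 for the last).

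*Nkg7* (ENSMUSG00000004612, chromosome 7 from 43437073 to 43438249) encodes a membrane protein of cytotoxic granules. Its 5 DETC libraries, at 632, 484, 612, 575 and 390.3 normalized counts, varied least of all members (539 ± 100, a coefficient of variation of 18.7%). Thy1hi libraries had 2.21, 5.27, 2.44 and 8.73, Thy1- libraries 1.22, 2.31, 0.79 and 2.46, HFSC libraries 16.2, 1.09, 6.41 and 1.40, and YFP+ libraries 1.99, 0 and 15.8. The groups did not overlap, with HFSC replicate 1 and YFP+ replicate 3 the highest epithelial libraries. Log2 differences were 6.70 from Thy1hi cells (SE 0.67, limma adjusted p 1.15e-07), 7.68 from Thy1- cells, 6.72 from HFSCs and 7.17 from YFP+ cells, the adjusted p being at most 1.57e-07. *Nkg7* passed the filter only through its DETC libraries, so the filter largely set these calls in advance. In Thy1- cells no library had more than 3 reads, and the pooled ratio of 326 had a wide counting interval (158 to 811).

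**Figure D2:**
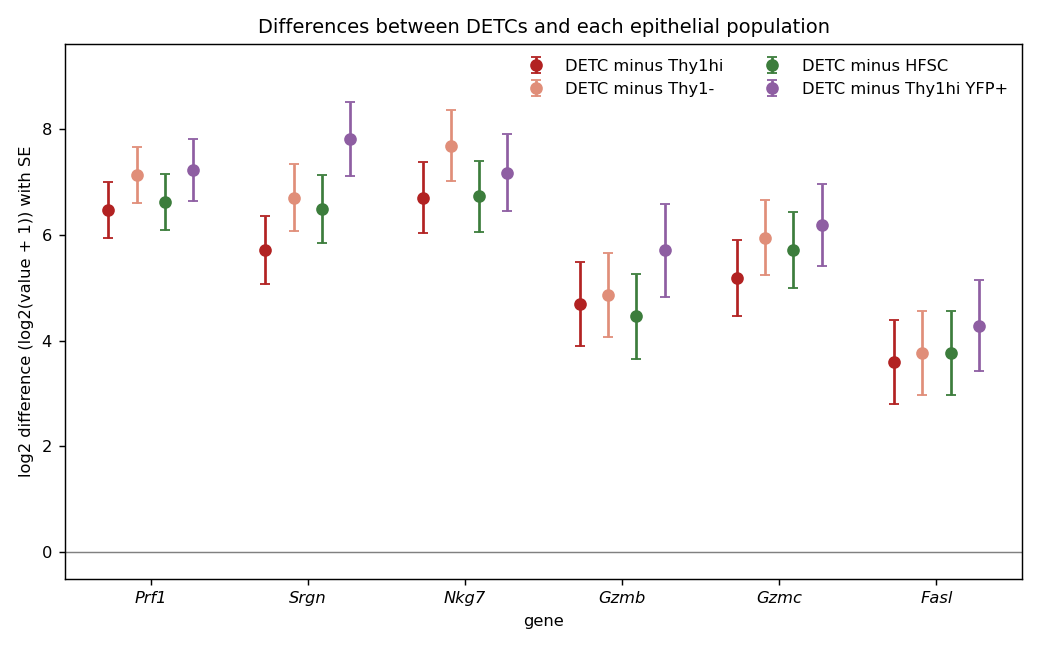
Log2 differences of the 6 tested genes, as DETC minus each epithelial population on the log2(value + 1) scale, with the standard error from limma as bars and 1 colour per population. *Prf1*, *Srgn* and *Nkg7* lie between 5.71 and 7.80, *Gzmb* and *Gzmc* between 4.46 and 6.18, and *Fasl* between 3.59 and 4.28. Many epithelial libraries had few or no reads of these genes, so the size of each difference depends on the pseudocount and on the DETC level.

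Granzymes B and C were the granzymes with clear DETC levels. *Gzmb* (ENSMUSG00000015437, chromosome 14 from 56258838 to 56262260) encodes the serine protease that cleaves caspases and Bid in target cells. DETC libraries 1, 2, 3, a and b had 171, 123, 121, 93.3 and 38.4 normalized counts (109 ± 48.6, n = 5), a range of 4.46 times. The Thy1hi libraries had 0, 13.2, 1.63 and 4.85, the Thy1- libraries 2.43, 5.79, 0 and 4.92, the HFSC libraries 2.31, 7.60, 7.48 and 0.70, and 1 of the 3 YFP+ libraries had 5.94 with no read in the other 2. Library b, the lowest of the DETCs, was still above Thy1hi replicate 2, the highest of the rest. The log2 difference was 4.69 from Thy1hi cells (SE 0.80, limma adjusted p 8.77e-05), 4.86 from Thy1- cells, 4.46 from HFSCs and 5.7 from YFP+ cells (adjusted p at most 1.52e-04). *Gzmb* passed the filter only through its DETC libraries, so the filter largely set these calls in advance.

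*Gzmc* (ENSMUSG00000079186, chromosome 14 from 56231441 to 56234656), which lies beside *Gzmb* in the granzyme cluster and is found in strongly activated killer cells, reached 149, 177, 46.6, 166 and 57.7 in DETC libraries 1, 2, 3, a and b (119 ± 62.2, n = 5). Libraries 1, 2 and a were high and 3 and b low, which is another order than that of *Gzmb*. Thy1hi libraries had 5.52, 2.63, 0 and 1.94, Thy1- replicate 1 had 7.30 with no read in the other 3, no HFSC library passed 2.17, and YFP+ replicate 3 had 1.98 with no read in the others. The log2 difference from Thy1hi cells was 5.18 (SE 0.71, limma adjusted p 6.76e-06), and the other 3 were 5.94, 5.71 and 6.18 from Thy1- cells, HFSCs and YFP+ cells (adjusted p at most 2.23e-06). *Gzmc* too passed the filter only through its DETC libraries, which largely set these calls in advance. Granzyme transcripts of this cluster resemble each other: 4.14% of the 50-base stretches of *Gzmc* recur in another granzyme, most of them in *Gzme*, and no 100-base stretch does. The study's methods give single reads of 100 cycles, so a full-length exact read of *Gzmc* matches no other granzyme. Whether shorter or mismatched reads were placed on a neighbour, or the reverse, was not tested.

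The other granzymes were near the limit of these libraries. *Gzma* (ENSMUSG00000023132, chromosome 13 from 113093825 to 113100981), the tryptase found in many killer cells, had 3, 0, 1, 2 and 0 reads in the 5 DETC libraries and 3 reads over all 15 epithelial libraries. *Gzmk* (ENSMUSG00000042385, chromosome 13 from 113171608 to 113225908), a second tryptase of memory-like T cells, had at most 1 read in any library and 1 in all DETC libraries together, and its annotated span overlaps *Esm1* on the other strand. At this depth no difference was detectable for either (exact permutation p 0.238 to 0.619 for *Gzma* and 0.333 to 1.0 for *Gzmk* over the 4 comparisons with DETCs). Of the cluster genes *Gzmd*, *Gzme*, *Gzmf*, *Gzmg* and *Gzmn*, none could be tested, and the highest DETC mean was 2.61 ± 2.16 at *Gzmf*, while *Gzme*, *Gzmg* and *Gzmn* had no read in any DETC library.

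*Gzmm* (ENSMUSG00000054206, chromosome 10 from 79689020 to 79695261), a granzyme described mainly in NK and γδ T cells, was the one member with more than a few reads that was not higher in DETCs than in Thy1hi and Thy1- cells. DETC libraries had 0.98, 8.14, 1.58, 6.86 and 10.8 normalized counts (5.67 ± 4.26, n = 5), Thy1hi libraries 4.42, 5.27, 5.69 and 5.82 (5.30 ± 0.632, n = 4) and Thy1- libraries 3.65, 6.94, 7.10 and 3.28. HFSCs had 3.03 ± 2.27 (n = 4) and YFP+ cells 1.77 ± 1.57 (n = 3). DETC values thus lay on both sides of those of Thy1hi and Thy1- cells. The pooled ratio of DETCs to Thy1hi cells was 0.967, with a counting interval of 0.520 to 1.82. It was 0.982 to Thy1- cells (0.531 to 1.83), 1.53 to HFSCs (0.767 to 3.19) and 2.85 to YFP+ cells (1.14 to 8.49), where the interval lay above 1, but no comparison with DETCs passed an exact permutation test (p 0.214 to 0.794). The 3 YFP+ libraries, with 2.99, 2.32 and 0, lay below the 4 Thy1hi libraries, which gives the smallest exact permutation p that 4 against 3 libraries allow, 0.0571.

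*Fasl* (ENSMUSG00000000817, chromosome 1 from 161780689 to 161788495) encodes the ligand that kills through Fas. DETC libraries 1, 2, 3, a and b had 111, 90.5, 61.7, 48.0 and 25.2 normalized counts (67.2 ± 33.9, n = 5). The epithelial libraries ranged from 0 to 10.9, and the means were 4.35 ± 2.12 (Thy1hi), 5.22 ± 4.57 (Thy1-), 5.18 ± 4.6 (HFSC) and 3.76 ± 4.89 (YFP+). DETC library b was the lowest and still above HFSC replicate 2 and Thy1- replicate 2, the highest of the others. The difference was the smallest of the 6 members on the log2 scale, 3.59 from Thy1hi cells (SE 0.79, limma adjusted p 0.00109, range 5.74e-06 to 0.0417 over the other fits), 3.77 from Thy1- cells, 3.77 from HFSCs and 4.28 from YFP+ cells. In pooled reads it was 16.1 times the level of Thy1hi cells (counting interval 9.88 to 27.9). *Fasl* passed the filter only through its DETC libraries, so the filter largely set its calls in advance.

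*Ifng* (ENSMUSG00000055170, chromosome 10 from 118441046 to 118445892) encodes interferon gamma, and its span overlaps *Gm49751*, a transcript of unverified coding status on the same strand. DETC libraries had 18.6, 10.2, 5.53, 5.49 and 1.20 normalized counts (8.2 ± 6.62, n = 5), or 41 reads in all. The 4 Thy1hi libraries had 4 reads, the Thy1- libraries 2, the HFSC libraries 1 and the YFP+ libraries none, where a count of 0 allows up to 3 reads. Library b overlapped the Thy1hi and Thy1- libraries, and the exact permutation p was 0.0317 for each of these, 0.0159 for HFSCs and 0.0357 for YFP+ cells, the last 2 being the smallest that 5 against 4 and 5 against 3 libraries allow. Without the filter on low values limma called *Ifng* higher in DETCs in all 4 comparisons (adjusted p 0.02, 0.00538, 0.00354 and 0.00341 for Thy1hi, Thy1-, HFSC and YFP+ cells). The pooled ratio to Thy1hi cells was 8.33, with a counting interval of 3.02 to 32.0.

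Levels of different genes were compared per kilobase of annotated exon. In DETCs *Nkg7* came first with 589 ± 110 normalized counts per kilobase, followed by *Srgn* (380 ± 102) and *Prf1* (371 ± 92.8), which overlapped each other and were in reverse order in 2 of the 5 libraries. A gap without overlap followed, and *Gzmc* had 133 ± 69.5 and *Gzmb* 76.2 ± 33.8, with *Gzmc* above *Gzmb* in 4 of 5 libraries. *Fasl* (34.7 ± 17.5), *Ifng* (6.33 ± 5.11), *Gzmm* (3.85 ± 2.90), *Gzma* (1.29 ± 1.44) and *Gzmk* (0.147 ± 0.328) completed the order, and each of these overlapped its neighbour. Transcripts of the pore, the matrix and the granule membrane thus stood above those of both expressed granzymes in each library.

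The 5 DETC libraries did not rank alike at all members. *Gzmb*, *Fasl* and *Ifng* ran in the same order, with library 1 highest, then 2, 3 and a, and b lowest, and their ranges were 4.46, 4.38 and 15.5 times. The order and range of *Ifng* rest on 19, 10, 7, 4 and 1 reads, with libraries 3 and a nearly equal (5.53 and 5.49). Libraries 2 and 3 were nearly equal at *Gzmb* (123 and 121). *Prf1* and *Nkg7* were also lowest in library b but varied only 1.94 and 1.62 times, and *Srgn* was highest in a. Library b also had the lowest sum of T cell markers (70.6% of the DETC mean), and library a the highest (144%), though *Gzmb* and *Fasl* were below their means in a. These 3 genes were grouped after their values were seen.

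Markers of other lymphocytes followed this order in part. *Cd8a*, a coreceptor of cytotoxic αβ T cells and of some other T cells, had 269, 201, 221, 122 and 15.6 normalized counts in DETC libraries 1, 2, 3, a and b. *Cd4* (17.6, 15.3, 7.12, 5.49 and 4.8) and the NK receptor gene *Klrb1c* (20.6, 14.2, 12.6, 12.3 and 2.40) ran in the order of *Gzmb*. The αβ receptor chain *Trac* had 145, 129, 112, 136 and 67.3, and the β chain genes *Trbc1* (320, 295, 293, 413 and 204) and *Trbc2* (106, 135, 96.5, 154 and 97.3) were highest in library a. *Cd8b1* was highest in library 3 (75.3, 30.5, 83.0, 41.2 and 6.0), and *Eomes*, on the NK cell list, was second highest in library b (15.7, 7.12, 6.32, 8.23 and 14.4). The γδ chain *Trdc* had 3830, 4471, 4241, 8014 and 4714. Their part in the spread of *Gzmb*, *Fasl* and *Ifng* was not tested. Library b, the lowest at *Cd8a* (15.6), was also the lowest at *Gzmb* (38.4) and *Prf1* (649), and had 57.7 at *Gzmc*. Without library b the 6 members were called higher in all 4 comparisons, where 5786 to 6499 of 17204 genes were called in either direction. For *Gzmb*, *Gzmc*, *Fasl* and *Nkg7* the filter largely set this in advance. That fit leaves out the library with the least *Cd8a*, so it does not test the part of other lymphocytes.

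**Figure D3:**
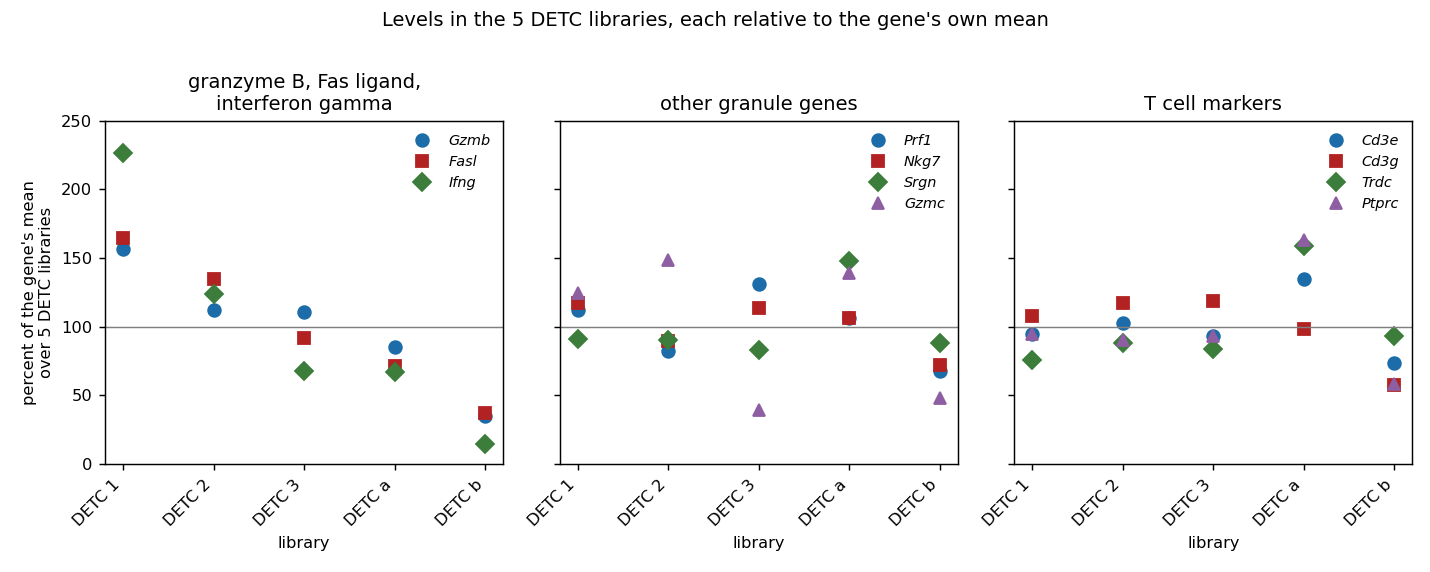
Levels in the 5 DETC libraries as a percent of the gene's mean over them, for *Gzmb*, *Fasl* and *Ifng* (left), *Prf1*, *Nkg7*, *Srgn* and *Gzmc* (middle) and 4 T cell markers (right). The left genes go from library 1, the highest, to library b, the lowest, and at *Prf1* the range is 1.94 times, against 4.46 times at *Gzmb*.

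In the 15 epithelial libraries the sum of the 10 members was 9.96 to 69.8 normalized counts, or 0.377% to 2.64% of the DETC mean. The sum of the 10 T cell markers in the same libraries was 0.453% to 1.52% of the DETC mean. By gene, the mean of a population relative to the DETC mean was 0.745% to 1.21% at *Prf1*, 0.315% to 1.16% at *Nkg7*, 0.330% to 1.98% at *Srgn* and 0.554% to 2.12% at *Gzmc*. It was 1.81% to 4.49% at *Gzmb*, 5.6% to 7.76% at *Fasl* and 31.2% to 93.4% at *Gzmm*. The part of T cells in the sorted fractions in these reads was not tested. Members summed to 0.0670 to 0.0959 of the T cell marker sum in DETC libraries and to 0.0675 to 0.193 in epithelial libraries, with YFP+ replicate 3 the highest.

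**Figure D4:**
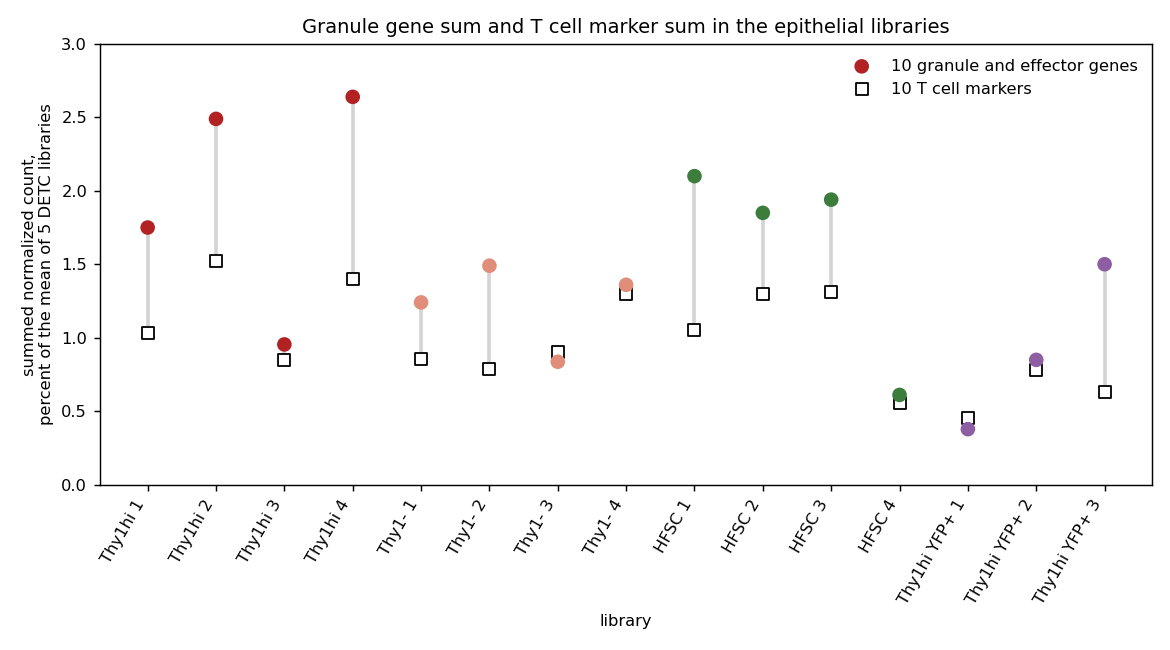
Filled circles show, for each of the 15 epithelial libraries and coloured by population, the summed normalized count of the 10 granule and effector genes as a percent of the mean of the 5 DETC libraries, and open squares show the same for 10 T cell markers. All values lie between 0.377% and 2.64%, and HFSC replicate 4 and YFP+ replicate 1 are the lowest at both.

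Among the epithelial populations no member was called. With limma, 0 of the 6 tested members differed between Thy1hi and Thy1- cells, where 0.337% of all genes tested were called in either direction, and 0 between Thy1hi cells and HFSCs (13.4% of all genes), Thy1- cells and HFSCs (6.08%) or YFP+ and Thy1hi cells (0.0116%). Of all 17204 genes tested edgeR called 44, 2498, 1288 and 2 in these 4 comparisons, and DESeq2 210, 3394, 2402 and 113. Among the members the counts at an unadjusted limma p under 0.05 were 0, 0, 0 and 1, edgeR called 0 in each, and DESeq2 called 1 in the last. That gene was *Srgn*, at 2.76 ± 1.06 in YFP+ cells (n = 3) and 16.5 ± 8.31 in Thy1hi cells (n = 4), with no overlap and a log2 difference of -2.09 (SE 0.73, limma adjusted p 0.382, DESeq2 adjusted p 0.0394). T cell markers were lower in the YFP+ libraries too, with 0.453% to 0.777% of the DETC mean against 0.846% to 1.52% in Thy1hi libraries, and their part in this difference was not tested. At the other 5 tested members, the log2 difference of Thy1hi from Thy1- cells was 0.17 to 0.97 with standard errors of 0.56 to 0.84, and a p that misses the threshold does not show equal levels.

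The genes most like each member over the 20 libraries were taken by Pearson's r of log2 values, as a description that the shared contrast of DETC against other libraries dominates. They were *Itgae*, *Cd3g* and *Sit1* for *Prf1* (r 0.979 to 0.983), *Tnfrsf1b*, *Il2rb* and *B3galt5* for *Srgn* (0.985 to 0.989), and *Pip4k2a*, *Tsc2* and *Lck* for *Nkg7* (0.963 to 0.965). For *Gzmb* they were *Kir3dl1*, *Adcy7* and *Arhgap45* (0.925 to 0.933), for *Gzmc* *Ccdc117*, *Themis* and *Dgkd* (0.951 to 0.952), and for *Fasl* *Cd37*, *Il21r* and *Plxnd1* (0.944 to 0.946). No member was among the 3 most like another, and between members r ran from 0.747 for *Fasl* with *Nkg7* to 0.957 for *Prf1* with *Nkg7*.

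Genes that make, load and release granules were found on both sides. Of 20 such genes 18 were tested, and 8 or 9 were higher and 3 or 4 lower in DETCs, according to the population compared, with a median log2 difference of 0.40 to 0.72, beside -0.091 to 0.053 over all genes tested. Over all genes 18.9% to 21.2% were called higher and 15.2% to 18.5% lower, so the lower calls were at about the background. After quantile normalization the median of these genes was 0.21 to 0.60. The largest rises relative to Thy1hi cells were at *Cst7*, an inhibitor of lysosomal cathepsins (246 ± 51.5 in DETCs against 1.72 ± 2.03, log2 difference 6.85, limma adjusted p 9.08e-08), at *Ctsw*, a cathepsin of killer cells (876 ± 196 against 11.3 ± 8.85, 6.37), and at *Coro1a*, an actin-binding protein of leukocytes (366 ± 71.3 against 12.3 ± 8.29, 5.08). *Cst7* had at most 6 reads in an epithelial library and passed the filter only through DETC libraries, which largely set its call in advance. *Ctsc*, the dipeptidase that activates granzymes, had 1258 ± 556 in DETCs and 145 to 312 in the other populations, and rose in all 4 comparisons (log2 difference 1.92 to 3.14). The general lysosome genes *Lamp1* (633 ± 122 against 1369 ± 233), *Lamp2* (879 ± 104 against 1415 ± 99.9) and *Cd63* (131 ± 48.2 against 245 ± 70.4) fell relative to Thy1hi cells, with log2 differences of -1.12, -0.69 and -0.96. The call of *Cd63* was lost without DETC library a and without Thy1hi replicate 1 or 2 (adjusted p at most 0.0998).

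Of 9 tested inhibitors that guard cells against granzymes and death receptors, 4 or 5 were higher and 1 lower in DETCs (median 0.49 to 0.60). Over all genes tested 18.9% to 21.2% were called higher and 15.2% to 18.5% lower, so the lower call was not above the background. After quantile normalization 3 or 4 were higher, and the median was 0.08 relative to HFSCs and 0.30 to 0.38 in the other comparisons. *Serpinb9*, the inhibitor of granzyme B, had 882 ± 357 in DETCs and 15.2 to 27.9 in the other populations, a log2 difference of 5.84 from Thy1hi cells (SE 0.56, limma adjusted p 6.81e-08). *Serpinb6b*, a related serpin, had 1709 ± 818 against 19.9 ± 11.7 (6.4), and *Bcl2*, which holds back mitochondrial death, 1171 ± 469 against 107 ± 26.4 (3.38). *Serpinb6a*, another serpin of this family, was the lower one, with 300 ± 73.7 against 1060 ± 245 in Thy1hi cells, and fell by 1.83 on the log2 scale.

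Targets and receptors were found in every population. Of 11 genes, 5 to 8 were higher in DETCs and at most 1 lower (median 0.68 to 1.58). The shares over all genes tested were 18.9% to 21.2% higher and 15.2% to 18.5% lower. *Fas*, the receptor of *Fasl*, had 238 ± 115 in DETCs, 198 ± 68.2 (Thy1hi), 131 ± 49.6 (Thy1-), 43.0 ± 9.73 (HFSC) and 88.0 ± 54.3 (YFP+) elsewhere. It was called higher in DETCs relative to HFSCs (log2 difference 2.36, limma adjusted p 1.18e-04) and YFP+ cells (1.58, adjusted p 0.00815), not relative to Thy1hi (0.23, adjusted p 0.730) or Thy1- cells (0.82, adjusted p 0.134), and the call against YFP+ cells was lost without YFP+ replicate 1 (adjusted p 0.116). The largest rises from Thy1hi cells were at *Gsdme*, a pore protein cut by granzyme B (621 ± 307 against 29.7 ± 26.1, 4.55), *Igf2r*, a receptor that takes up granzyme B (1939 ± 880 against 294 ± 41.6, 2.64), and *Bax* (96.4 ± 54.9 against 24.5 ± 8.79, 1.88). *Casp8*, the caspase below Fas, was lower in DETCs than in Thy1hi cells (335 ± 21.1 against 577 ± 207, -0.69, adjusted p 0.0296), a call lost in 6 of 20 other fits, among them those without DETC library 3 or without Thy1hi replicate 1, 2 or 3 (adjusted p at most 0.120), and higher than in HFSCs (0.72, adjusted p 0.0222), a call lost after quantile normalization (adjusted p 0.0588).

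The receptor of interferon gamma was present in all populations and highest in DETCs. *Ifngr1* had 2170 ± 672 in DETCs and means of 392 to 958 in the others, and *Ifngr2* had 507 ± 120 and 103 to 122, and both were called in the 4 comparisons (log2 difference from Thy1hi cells 1.16 and 2.10, limma adjusted p 4.84e-04 and 2.52e-08). *Socs1*, which restrains this signal, had 157 ± 38.3 against 31.8 ± 9.85 in Thy1hi cells (2.29). Of the 8 genes of the pathway, 4 to 6 were called higher in DETCs and none was called lower (median 0.69 to 1.53), but 1 was called lower relative to Thy1hi and to Thy1- cells after quantile normalization. Beside this, 18.9% to 21.2% of all genes tested were called higher and 15.2% to 18.5% lower. The uncalled genes *Irf1* and *Jak2*, named after their values were seen, had log2 differences from Thy1hi cells of -0.72 and -0.77 (limma adjusted p 0.345 and 0.0617, and 0.00137 and 0.00129 with the replicate number as a block). *Irf1*, an interferon-responsive factor, did not overlap there, at 754 ± 138 in DETCs and 1242 ± 249 in Thy1hi cells (exact permutation p 0.0159).

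Of 13 other effector cytokines and death ligands, 9 were tested, and 8 or 9 were higher in DETCs and none lower (median 3.01 to 4.48). Among all genes tested these shares were 18.9% to 21.2% and 15.2% to 18.5%. The largest rises were at *Ltb*, a lymphotoxin subunit (87.1 ± 41.5 against 1.16 ± 1.56 in Thy1hi cells, 5.49), *Il13*, a type 2 cytokine (44.7 ± 14.2 against 0.988 ± 1.98, 4.87), and *Il2*, a T cell growth factor (23.4 ± 9.85 against 0.657 ± 1.31, 4.02), each with a limma adjusted p of at most 4.58e-06. The epithelial groups were at or close to no read there, so these fitted values depend on the pseudocount. *Ltb*, *Il13* and *Il2* had at most 3, 3 and 2 reads in an epithelial library. They passed the filter only through DETC libraries, which largely set their calls in advance. *Lta* and *Tnfsf14*, with at most 5 and 6 reads, were in the same position. *Il4*, *Il17a*, *Il22* and *Il10* were too low to be tested, at most 1.25 on average in DETCs.

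Among 16 regulators of cytotoxic genes, 9 to 11 were higher in DETCs and 1 to 3 lower (median 1.0 to 2.20). All genes tested had 18.9% to 21.2% called higher and 15.2% to 18.5% lower, so the lower calls were at about the background or under it. *Runx3*, the RUNX factor of CD8 and epidermal T cells, had 2933 ± 1332 in DETCs against 43.6 ± 19.3 in Thy1hi cells (log2 difference 6.05, SE 0.46, limma adjusted p 2.68e-09) and stood with *Batf* (65.3 ± 19.1 against 1.45 ± 1.20, 4.88) and *Ikzf3* (304 ± 133 against 22.1 ± 19.6, 4.0), a factor of the AP-1 family and one of the Ikaros family. *Batf* had at most 6 reads in an epithelial library and passed the filter only through DETC libraries, which largely set its call in advance. *Id3*, which holds back E proteins (181 ± 78.2 against 510 ± 123), and *Zbtb7b*, a factor of CD4 T cells (328 ± 121 against 705 ± 226), fell relative to Thy1hi cells, with log2 differences of -1.64 and -1.15. *Runx1*, another RUNX factor of the list and named after its values were seen, had 227 ± 45.8 in DETCs. It was called lower than in HFSCs (646 ± 116, log2 difference -1.51) and Thy1- cells (353 ± 55.8, -0.65). The call against Thy1- cells was lost in 3 of 20 other fits. Relative to Thy1hi cells (126 ± 9.84) *Runx1* was called higher in DETCs (0.82), and YFP+ cells had 186 ± 69.7.

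**Figure D5:**
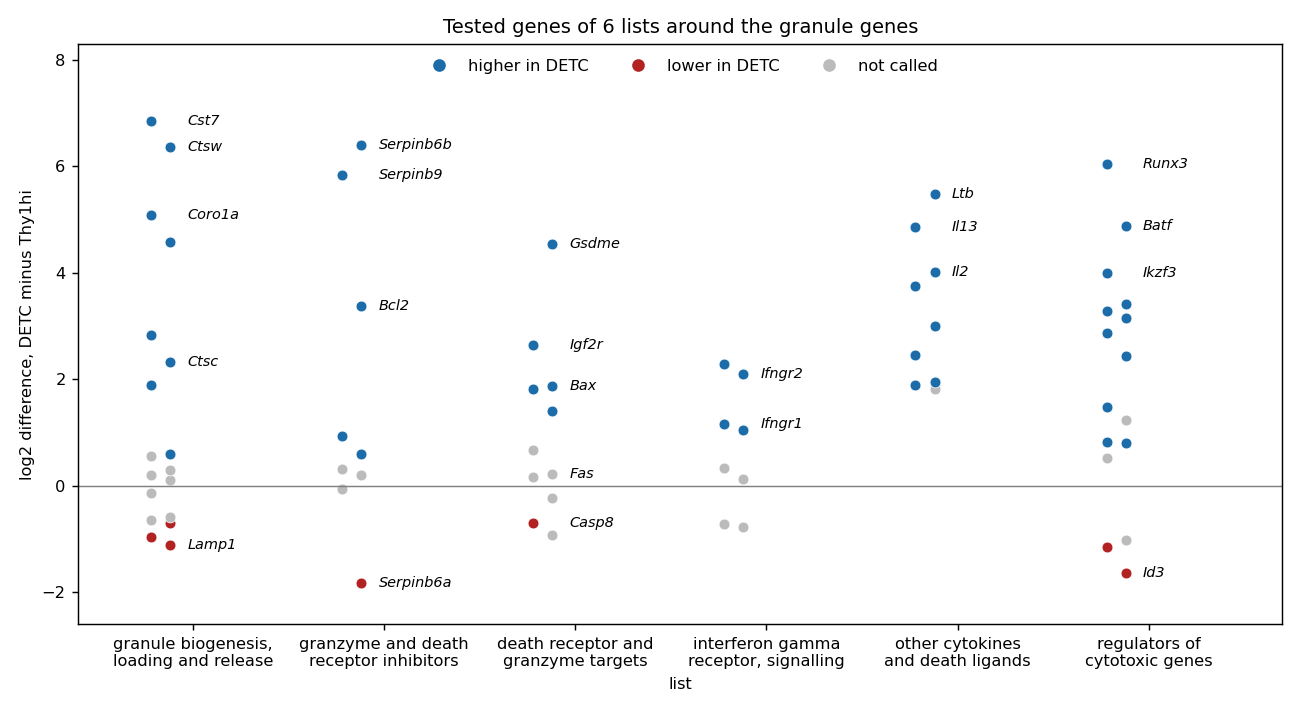
Log2 difference, DETC minus Thy1hi, of the tested genes of 6 lists, with 1 point per gene coloured by its call (blue, called higher in DETCs; red, called lower; grey, not called). The cytokine list has its 9 genes above 0, while the granule list has *Cst7* at 6.85 and *Lamp1* at -1.12.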

How the data were processed

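RNA of sorted cells had been sequenced, aligned to mm10 with STAR and counted with featureCounts by the authors (versions and use of strand not given in the sources used here). The authors deposited 1 table of normalized counts (signal), that is counts divided by size factors, from which whole reads were recovered for 100% of values (within 0.006). The row order of 1 column was restored from gene names sorted without hyphens (the correlation with its group rose from 0.0354 to 0.936).

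limma 3.58.1 (lmFit, eBayes with trend) was run in R 4.3.3 on log2(normalized count + 1) over all 20 libraries, with 1 mean per population, on 17204 genes with at least 10 in at least 3 libraries. Calls had a Benjamini-Hochberg adjusted p under 0.05. Genes below the filter had exact two-sided permutation tests (scipy 1.17.1). edgeR 4.0.16 and DESeq2 1.42.0 on recovered reads were among the alternatives. Of these fits, only limma was tested on simulated data, for DETCs against Thy1hi cells. Same-numbered libraries had positively correlated deviations between Thy1hi and Thy1- cells (r 0.293 to 0.716) and, in 3 pairs, between DETCs and HFSCs (0.17 to 0.333), from the data and not the labels. Differently numbered libraries had r of -0.651 to 0.514 and of -0.25 to 0.371. The ranges overlap, and for DETCs and HFSCs the highest r was that of an unmatched pair, so pairing is not established there.

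The members and gene lists were chosen with earlier results of these data known. Named were the 10 members, per list up to 3 called genes with the largest rise and 3 with the largest fall relative to Thy1hi cells, and direct partners of members.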

Additional observations from a re-analysis of the deposited data

Results flagged for a closer look

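In 27 groups of 4 or 5 libraries, 4 had a library set apart from the rest by a gap that exceeded Dixon's 95% critical value. Chance gives about 1 in 20 for independent normal values. These groups share libraries and some hold few reads, so that rate cannot be set against their number. *Srgn*, the granule proteoglycan, was at 1232 normalized counts in DETC library a, with 758 the nearest of the other 4 and a gap of 0.878 of the range. The T cell marker sum was also highest in this library, at 144% of the DETC mean. *Srgn* was at 0 in HFSC replicate 4, with 17.1 the nearest (0.872), and that library also had the lowest T cell marker sum of the HFSCs, at 0.555% of the DETC mean, and the lowest share of reads on the ribosomal RNA gene *Rn45s*, 13.1%. Its Langerhans cell marker sum was 75.7, against 2497, 5191 and 3641 in HFSC replicates 1, 2 and 3. The part of either cell type in the *Srgn* reads was not tested. The perforin gene *Prf1* was at 17.2 in Thy1- replicate 4, with 4.63 the nearest (0.895), and the T cell marker sum there, 1.30% of the DETC mean, was the highest of its group. *Gzmc* was at 7.30 in Thy1- replicate 1 and had no read in the other 3 libraries (a gap of the whole range). When only 1 library of a group has reads, the gap is the whole range at any level.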

How the results depend on the processing

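The 6 tested members stayed higher in DETCs than in each epithelial population in all 462 single differences recomputed, 210 of them without 1 library. For *Gzmb*, *Gzmc*, *Fasl* and *Nkg7* the filter largely set this outcome in advance, because they passed it only through their DETC libraries. With a mean of at least 50 as the filter, 3 members were left to test and 3 were called in each of the 4 comparisons. Of all 9803 genes tested with that filter, 4638 to 5052 were called in either direction. DESeq2 called 1 member, *Srgn*, lower in YFP+ than in Thy1hi cells, where it called 113 of 17204 genes in either direction. With the replicate number as a block, 6 members were called in each DETC comparison and 0 between epithelial populations, so the block changed no member's call. In the DETC comparisons the block fit called 6074 to 7340 of all 17204 genes in either direction.

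Counts over all genes moved more. Between Thy1hi and Thy1- cells 58 genes were called, 1137 with the replicate block, 210 by DESeq2, 95 with only these populations in the fit, 34 after rescaling to the same total, and 13 to 38 without 1 library. Between Thy1hi cells and HFSCs 2300 were called, and 1369 with the block. Between Thy1- cells and HFSCs 1046 were called, 2402 by DESeq2, 640 with only these populations, 329 with the block, and 511, 652, 602 and 1965 without Thy1- replicate 1, 2, 3 or 4. Between YFP+ and Thy1hi cells 2 were called, 25 with a pseudocount of 10, 6 after quantile normalization, 0 after rescaling, 113 by DESeq2, 16 with only these populations, 9 with the block and 0 to 4 without 1 library. The cause was not tested. Of the genes called in the DETC comparisons, 53.3% to 55.4% were higher in DETCs, 41.3% to 43.2% after quantile normalization (median of all genes -0.247 to -0.154) and 43.7% to 56.5% after rescaling. Rescaling moved that share from 42.1% to 71.6% for Thy1- cells against HFSCs, from 48.7% to 61.5% for Thy1hi cells against HFSCs, and from 34.5% to 11.8% for Thy1hi against Thy1- cells. The median log2 difference of each gene list stayed above 0 under both scalings, but quantile normalization lowered that of the inhibitors from 0.57 to 0.08 (HFSCs) and that of the granule genes from 0.46 to 0.22 (Thy1- cells) and from 0.40 to 0.21 (YFP+ cells). Depth limits *Gzma*, *Gzmk* and *Ifng*, with at most 3, 1 and 19 reads in a library.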
